A study of Homo sapiens with 6 samples.

Results

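The genes described here control and execute signalling by cyclic AMP (cAMP) and its kinase, protein kinase A. There are 10 of them: the kinase inhibitors PKIB, PKIA and PKIG, the catalytic subunits PRKACA and PRKACB, the regulatory subunits PRKAR1A and PRKAR2B, and the phosphodiesterases PDE3B, PDE4B and PDE4D. They were followed through every probe set that the platform annotation assigns to 1 of them alone, 27 probe sets of 54613 that are not controls. The genes were chosen by gene family with the CA and DMSO values of these same arrays known, in which PKIB had been among the largest falls. For that reason, their differences and calls are given as a description and support nothing.

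RNA came from MOLM-14, an established line of human acute myeloid leukaemia cells that carries an MLL-AF9 rearrangement. The 3 CA samples were kept for 24 h in 10 nM cortistatin A (CA), a steroidal alkaloid that blocks the Mediator kinases CDK8 and CDK19. The 3 DMSO samples were kept for 24 h in the vehicle. All 6 samples were wells of this single cell line, each hybridised to 1 Affymetrix U133 Plus array, and the comparison addresses which mRNAs differ once those kinases are blocked.

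Receptors coupled to the G protein Gs activate adenylyl cyclases, which make cAMP. The cAMP binds regulatory subunits of protein kinase A and frees the catalytic subunits, which phosphorylate cytoplasmic proteins and, in the nucleus, the transcription factor CREB. Protein kinase inhibitors (PKI) occupy the active site of free catalytic subunits, and phosphodiesterases end the signal by hydrolysing cAMP. In monocytes and macrophages, agents that raise cAMP are known to dampen the release of inflammatory cytokines such as TNF.

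Values are log2 intensities, on which a difference of 1 is a doubling of the signal, and levels of different probe sets are not comparable. Array medians were 5.59 to 5.62 in CA and 5.61 to 5.62 in DMSO. Of 8 markers listed for these leukaemia cells, 5 were measured, and LYZ, FLT3, MEIS1 and MPO lay above the array median on all 6 arrays, whereas SPI1 lay under it on 4. MEIS1 was called higher in CA, and the summed log2 level of the 5 markers was 48.44 to 48.50 in CA and 47.96 to 48.25 in DMSO, without overlap. Of the 5 T and NK cell markers, NCAM1 was called higher in CA. Their summed log2 level was 29.33 to 29.54 in CA and 28.51 to 28.96 in DMSO, without overlap. NCAM1 differed by 0.41 and CD3D by 0.28, whereas CD3E, CD3G and CD2 differed by 0.06, -0.10 and 0.05. CD3E, CD3G and CD2 lay under the array median on all 6 arrays, and CD3G also under the lower quartile of all 6. Of 14 measured markers of B, erythroid, megakaryocytic, and epithelial or stromal cells, 0 were called by limma (1 at an unadjusted p under 0.05). The GAPDH control probe sets, whose 3' signal less 5' signal reflects RNA integrity, gave a difference of 0.44 to 0.53 in CA and 0.35 to 0.40 in DMSO, also without overlap, while the same measure for ACTB was 2.34 to 2.46 in CA and 2.15 to 2.40 in DMSO, with overlap. The labels name 2 RNA isolation kits without saying which sample had which, so the kit could not be examined. The part of these in the differences given next was not tested.

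PKIB, which encodes the beta form of the kinase inhibitor, was about 3-fold lower in CA on its probe set of higher mean. The regulatory subunit gene PRKAR2B was lower by less. The catalytic subunit gene PRKACB and the regulatory subunit gene PRKAR1A were also called lower. Their calls were lost in most or all fits with 1 array left out. PDE4B, a phosphodiesterase specific for cAMP, was the 1 gene called higher. In RNA from whole wells, fewer cells expressing a gene and less RNA per cell cannot be told apart. Across the 27 probe sets, 6 were called lower and 1 higher by limma at an adjusted p under 0.05 (Benjamini-Hochberg over all 54613 probe sets). Over all probe sets, 5.01% were called, 2.01% lower and 3.0% higher. The median log2 difference was -0.09 over the 27 probe sets and -0.01 over all. The groups did not overlap in 12 of the 27, lower in 11 and higher in 1, beside 25.1% of all probe sets (13.1% lower and 12.1% higher), and nothing is read from these counts. Since the replicates were wells, p-values here reflect only well-to-well spread, which may be technical.

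**Figure D1:**
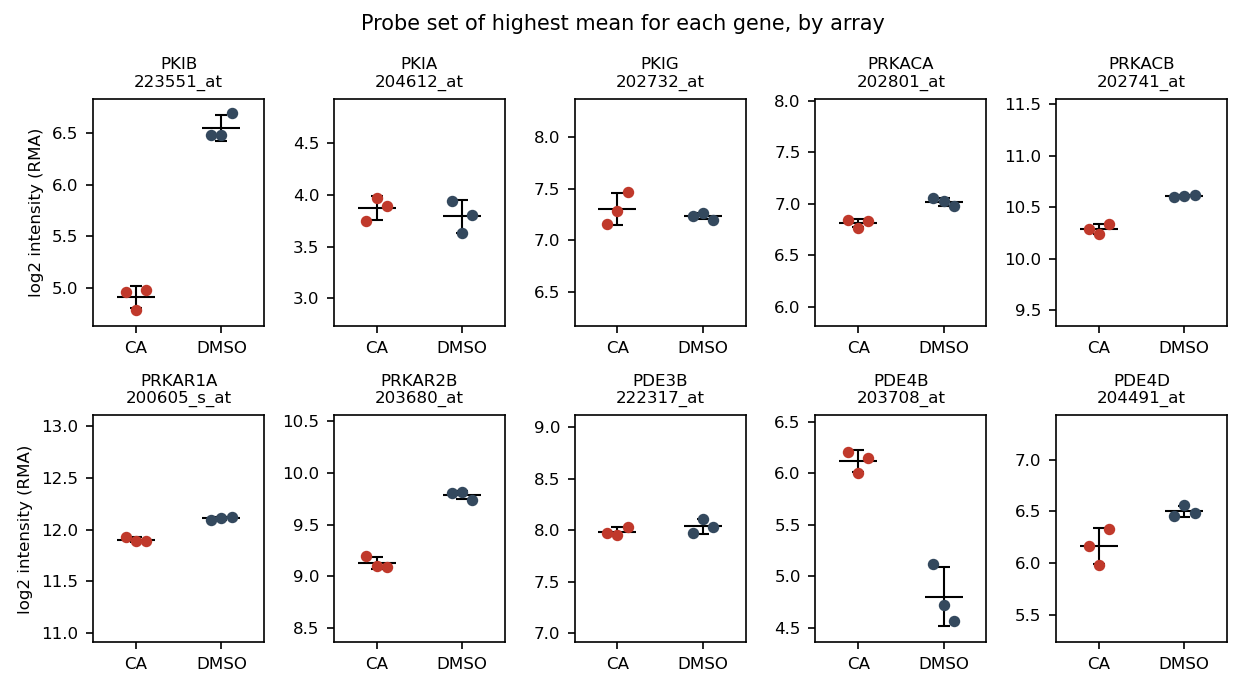
Log2 intensity (RMA) on each array for the probe set of highest mean of each gene. Points are arrays (3 CA, 3 DMSO), horizontal lines are means and bars are SD. Every panel spans 2.2 log2 units. PKIB sat at 4.79 to 4.98 in CA, below all DMSO arrays, and PDE4B at 6.0 to 6.20 in CA, above all DMSO arrays.

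Among the inhibitors, PKIB was measured by 2 probe sets. On 223551_at the CA arrays read 4.96, 4.79 and 4.98 and the DMSO arrays 6.48, 6.48 and 6.70. All 3 CA values lay more than a log2 unit below all 3 DMSO values. The means were 4.91 ± 0.11 in CA and 6.55 ± 0.13 in DMSO (SD, n = 3), a log2 difference of -1.64 (SE 0.08), or 3.12-fold lower. The CA values lay under their array medians (5.59 to 5.62), though above the lower quartiles, so the size of the fold is uncertain. By size of difference this probe set ranked 20 among the 54613. The other, 231120_x_at, read 3.54, 3.53 and 3.58 in CA, against 4.20, 4.04 and 4.21 in DMSO. The groups again did not overlap and the difference was -0.60 (SE 0.06), but 4 of its 6 values lay under the lower quartile of their array, so its size is uncertain. Both probe sets were called lower, and both kept that call with any 1 array left out.

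Neither of the sister inhibitors was called. PKIG, the gamma form, read 7.16, 7.28 and 7.47 in CA, against 7.24, 7.26 and 7.20 in DMSO. Its groups overlapped, and the difference was 0.07 (95% confidence interval -0.12 to 0.27). PKIA, the alpha form, differed by 0.08 and 0.04 on its 2 probe sets, with overlapping groups, and all 12 values lay under the lower quartile of their array.

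PKIB has 3 promoter windows in RefSeq (GRCh38.p14), each running from 250 bases before a transcript start to 50 after it. The most upstream of them is shown because it holds 3 copies of the half-site of the cAMP response element, the sequence that CREB binds, here TGACG or its reverse complement, in capitals. The window is chr6:122471671-122471970 on the plus strand.
PKIB: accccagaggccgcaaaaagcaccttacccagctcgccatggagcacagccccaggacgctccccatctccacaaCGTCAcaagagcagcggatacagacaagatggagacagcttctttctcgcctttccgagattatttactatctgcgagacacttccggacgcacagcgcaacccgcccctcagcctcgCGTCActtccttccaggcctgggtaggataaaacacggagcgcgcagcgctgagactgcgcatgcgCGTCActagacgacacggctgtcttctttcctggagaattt
The copies begin 175 and 57 bases before the start and at base 10 of the transcript. A 4th copy lies in another PKIB window, beginning 245 bases before its start. Of the 35116 windows in the table, 24.6% hold this half-site on either strand, so a match is a description and not a site of binding.

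Of the catalytic subunits, PRKACB, the beta form, was lower on 2 of its 3 probe sets. On 202741_at the CA arrays read 10.28, 10.24 and 10.34 and the DMSO arrays 10.60, 10.61 and 10.62. The groups were well apart, with a difference of -0.32 (SE 0.05), or 1.25-fold lower. On 202742_s_at the CA arrays read 8.02, 8.06 and 8.20, against 8.40, 8.39 and 8.63 in DMSO, a difference of -0.38 (SE 0.08). Both were called, while the third probe set, 235780_at, overlapped between groups (-0.08, 95% confidence interval -0.29 to 0.12). The first call was lost without CA replicate 1 or 2 or DMSO replicate 1, 2 or 3, at differences of -0.34 to -0.30 over all arrays left out, and the second without any 1 of the 6 arrays, at -0.43 to -0.30. The first was also lost under a block on replicate number, and the second with arrays centred on their medians or on reference genes.

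PRKACA, the alpha form, is the widely expressed catalytic subunit. Its probe set 202801_at read 6.84, 6.77 and 6.83 in CA, against 7.05, 7.03 and 6.98 in DMSO. These groups did not overlap, yet the difference of -0.21 (95% confidence interval -0.32 to -0.09) was not called over all probe sets. It was called lower when each gene was tested by 1 probe set and adjusted over 19775 genes. The other probe set, 216234_s_at, overlapped between groups at -0.17.

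**Figure D2:**
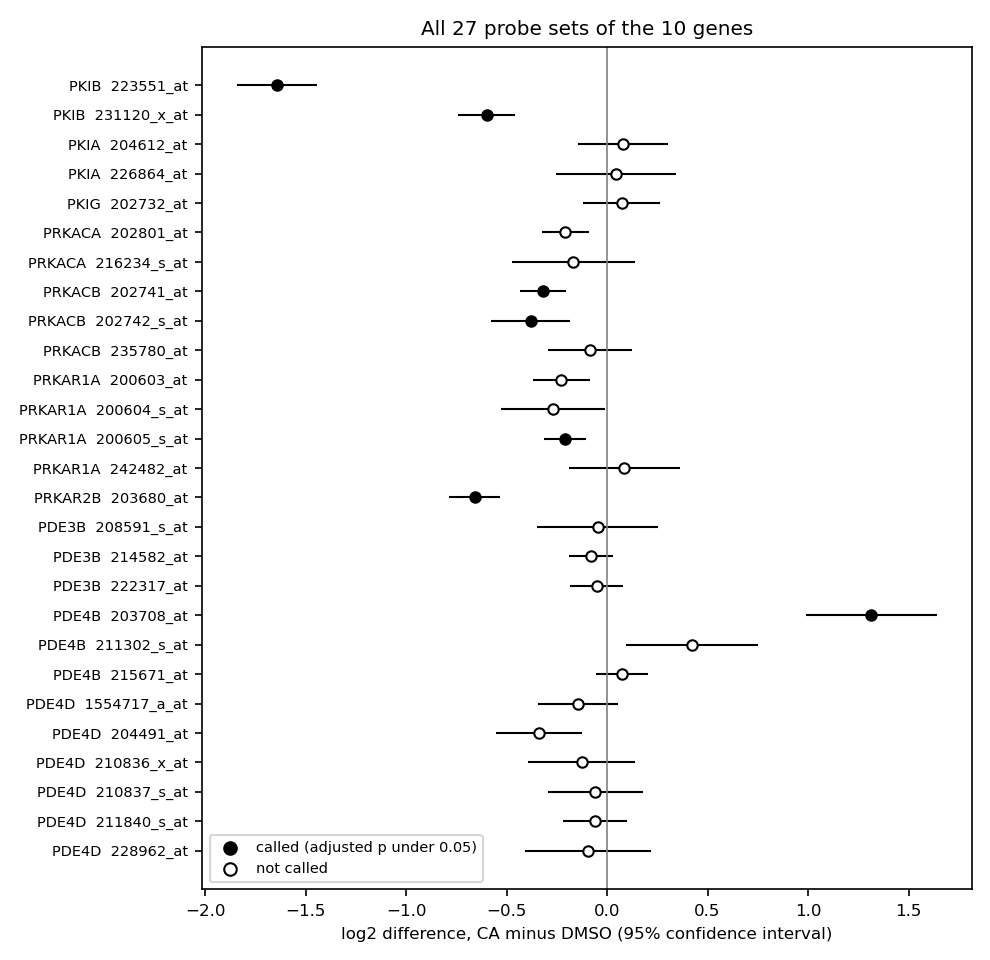
Log2 difference, CA minus DMSO, for all 27 probe sets of the 10 genes, with 95% confidence intervals from limma. Filled points were called at an adjusted p under 0.05. PKIB (-1.64) and PDE4B (1.31) lie farthest from 0 on either side, and several genes have both called and uncalled probe sets.

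Regulatory subunits hold the catalytic subunits inactive until cAMP binds. PRKAR2B, the type II beta form, was clearly lower on its only probe set, 203680_at. The CA arrays read 9.20, 9.10 and 9.09, and the DMSO arrays 9.80, 9.82 and 9.74. The gap between the groups was several times the spread within either. The means were 9.13 ± 0.06 in CA and 9.79 ± 0.04 in DMSO (SD, n = 3), a difference of -0.66 (SE 0.05), or 1.58-fold lower, called with any 1 array left out as well.

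PRKAR1A, the type I alpha form, differed by less and was called on 1 of 4 probe sets. On 200605_s_at it read 11.93, 11.89 and 11.88 in CA, against 12.09, 12.11 and 12.12 in DMSO. The groups did not overlap, at a difference of -0.21 (SE 0.04). This call was lost with any 1 array left out (-0.22 to -0.20) and under a block on replicate number. It was also lost with arrays centred on their medians or on reference genes, and after a second quantile normalization. The probe sets 200603_at (-0.23) and 200604_s_at (-0.27) were lower on every CA array without being called. The fourth, 242482_at, overlapped between groups at 0.09.

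PRKAR1A is the 1 gene of the 8 searched with the full palindromic element TGACGTCA in a promoter window, at chr17:68512381-68512388 (GRCh38.p14, RefSeq). It lies in both of a pair of overlapping windows, 49 bases before one start and at base 3 of the other. The window chr17:68512180-68512479, plus strand, is shown with the element in capitals, which contains the half-site on each strand.
PRKAR1A: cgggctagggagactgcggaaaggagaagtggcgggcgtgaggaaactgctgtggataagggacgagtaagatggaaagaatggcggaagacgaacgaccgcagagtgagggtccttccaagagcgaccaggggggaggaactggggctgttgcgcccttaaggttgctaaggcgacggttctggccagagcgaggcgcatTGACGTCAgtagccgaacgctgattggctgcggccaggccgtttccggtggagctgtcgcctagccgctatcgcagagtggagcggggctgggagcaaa
Of all windows, 1.85% hold this element. For comparison, the only window of PRKAR2B, chr7:107044455-107044754 on the plus strand, holds neither the element nor the half-site, and therefore has no capitals.
PRKAR2B: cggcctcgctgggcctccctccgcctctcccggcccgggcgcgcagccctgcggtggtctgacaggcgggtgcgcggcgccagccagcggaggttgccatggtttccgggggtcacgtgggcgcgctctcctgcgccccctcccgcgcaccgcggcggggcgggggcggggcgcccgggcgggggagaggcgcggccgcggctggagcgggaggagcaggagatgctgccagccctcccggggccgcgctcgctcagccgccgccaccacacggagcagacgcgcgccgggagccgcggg
In all, 32 windows of 8 genes were searched, of which 2 held the element and 9 the half-site, and PKIA and PDE3B were not searched. That these letters are missing from a window says nothing of whether CREB binds elsewhere.

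Of the phosphodiesterases, PDE4B was called higher and the other 2 genes were not called. PDE4B, a cAMP-specific enzyme that is induced in activated monocytes, was higher on 203708_at, at 6.20, 6.0 and 6.15 in CA, against 5.12, 4.72 and 4.56 in DMSO. Every CA value lay above every DMSO value, and the DMSO arrays were the more spread. The means were 6.12 ± 0.10 in CA and 4.80 ± 0.28 in DMSO (SD, n = 3), a difference of 1.31 (SE 0.14), or 2.49-fold higher. It was called with any 1 array left out, at 1.20 to 1.47. The DMSO values lay under their array medians (5.61 to 5.62), though above the lower quartiles, so the size of the fold is uncertain. The probe set 211302_s_at read 5.06, 4.96 and 4.71 in CA, against 4.25, 4.74 and 4.47 in DMSO, a difference of 0.42 that was not called and whose groups overlapped. The last, 215671_at, differed by 0.07 and lay under the lower quartile on all 6 arrays.

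PDE4D, a second cAMP-specific enzyme of the same family, pointed the other way without being called. Its probe set 204491_at read 6.17, 5.98 and 6.33 in CA, against 6.46, 6.56 and 6.49 in DMSO. The groups did not overlap, and the difference was -0.34 (95% confidence interval -0.55 to -0.12). Its 5 other probe sets overlapped between groups at -0.15 to -0.06.

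PDE3B, which hydrolyses cAMP and is inhibited by cyclic GMP, differed little on its 3 probe sets, by -0.08 to -0.05, none of them called. Its probe set of highest mean, 222317_at, read 7.97, 7.95 and 8.03 in CA, against 7.97, 8.11 and 8.03 in DMSO, with a 95% confidence interval of -0.18 to 0.08. On 214582_at the groups did not overlap, at a difference of -0.08 (95% confidence interval -0.19 to 0.03).

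The rest of the pathway was described by 92 listed genes, of which 82 were measured, each by its probe set of highest mean and tested by limma over 19775 genes. In CA, 10 were called, of which 6 fell and 4 rose, beside 11.1% of all genes called, 4.49% lower and 6.64% higher. Their median log2 difference was -0.02, against -0.00 over all genes.

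Upstream of cAMP, 1 of 10 adenylyl cyclases fell and 1 rose by limma (2 lower and 1 higher at an unadjusted p under 0.05). ADCY7, a cyclase abundant in blood cells, read 9.39, 9.41 and 9.37 in CA, against 9.80, 9.86 and 9.71 in DMSO, without overlap (-0.40, SE 0.05, adjusted p = 0.00388). It was called on 1 of its 2 probe sets, and the other, the only one whose name does not end in _s_at, was at 0.0125. ADCY9, another membrane-bound cyclase, rose by 0.22 (adjusted p = 0.0211), but its other 2 probe sets pointed lower and the call was kept only without DMSO replicate 2. Without any other 1 array (CA replicates 1, 2 and 3, DMSO replicates 1 and 3) its adjusted p was 0.0606 to 0.0775.

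Of 12 receptors coupled to Gs, 2 fell and 1 rose by limma (2 lower and 2 higher at an unadjusted p under 0.05). PTGER4, a receptor for prostaglandin E2, fell by 0.24 (adjusted p = 0.0188), ADORA2B, an adenosine receptor, fell by 0.22 (adjusted p = 0.0190), and ADRB1, the beta-1 adrenergic receptor, rose by 0.17 (adjusted p = 0.0313). Of 6 G protein alpha subunits 1 fell by limma (3 lower and 0 higher at an unadjusted p under 0.05). This was GNAI2, which inhibits adenylyl cyclases, at -0.21 (adjusted p = 0.0237). These changes were small and their calls fragile. When all 54613 probe sets were tested, 0 of 3 ADRB1 probe sets were called in the same direction by limma, with 1 of opposite sign, and likewise 0 of 1 for GNAI2 and 0 of 3 for ADCY9. GNAI2 and ADRB1 lost theirs without any 1 of the 6 arrays, with adjusted p of 0.0524 to 0.0842 and 0.0567 to 0.106. PTGER4 lost its call without any array except DMSO replicate 3 (0.0518 to 0.0664), and ADORA2B without CA replicate 1 or 2 or DMSO replicate 2 or 3 (0.0611 to 0.0686).

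At the level of cAMP breakdown and kinase A itself, no other gene was called by limma. This held for 11 other phosphodiesterases (0 at an unadjusted p under 0.05), 4 other kinase subunits or relatives (1), 13 A-kinase anchoring proteins, which tether the kinase in the cell (1), and 4 other cAMP-binding proteins or exporters (1). PRKAR2A, the type II alpha regulatory subunit and the sister of PRKAR2B, was at 0.06 (95% confidence interval -0.03 to 0.14).

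Of 10 CREB factors and coactivators, 2 rose and 0 fell by limma (4 higher and 1 lower at an unadjusted p under 0.05). SIK1, a kinase that restrains CREB coactivators and is itself cAMP-inducible, read 8.41, 8.48 and 8.41 in CA, against 7.81, 7.73 and 7.73 in DMSO (0.68, SE 0.04, adjusted p = 2.95e-04), a 1.60-fold rise. It rested on 208078_s_at, and its other probe set was at -0.16 and uncalled. CRTC3, a coactivator of CREB, rose by 0.45 (SE 0.05, limma adjusted p = 0.00218), with levels of 10.19 ± 0.03 in CA and 9.74 ± 0.07 in DMSO (SD, n = 3).

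Of 12 cAMP-inducible genes, 2 fell and 0 rose by limma, likewise at an unadjusted p under 0.05. EGR1, an immediate early transcription factor, read 6.73, 6.75 and 6.71 in CA, against 7.52, 7.40 and 7.38 in DMSO (-0.70, SE 0.05, adjusted p = 4.25e-04), a 1.62-fold fall, and was called on 1 of 3 probe sets. FOS, a subunit of AP-1, fell by 0.38 (SE 0.05, adjusted p = 0.00499). Both genes also answer to signals other than cAMP. The other 10 were not called, among them NR4A1 (-0.06), NR4A2 (0.08) and NR4A3 (-0.15), nuclear receptors of the early response.

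**Figure D3:**
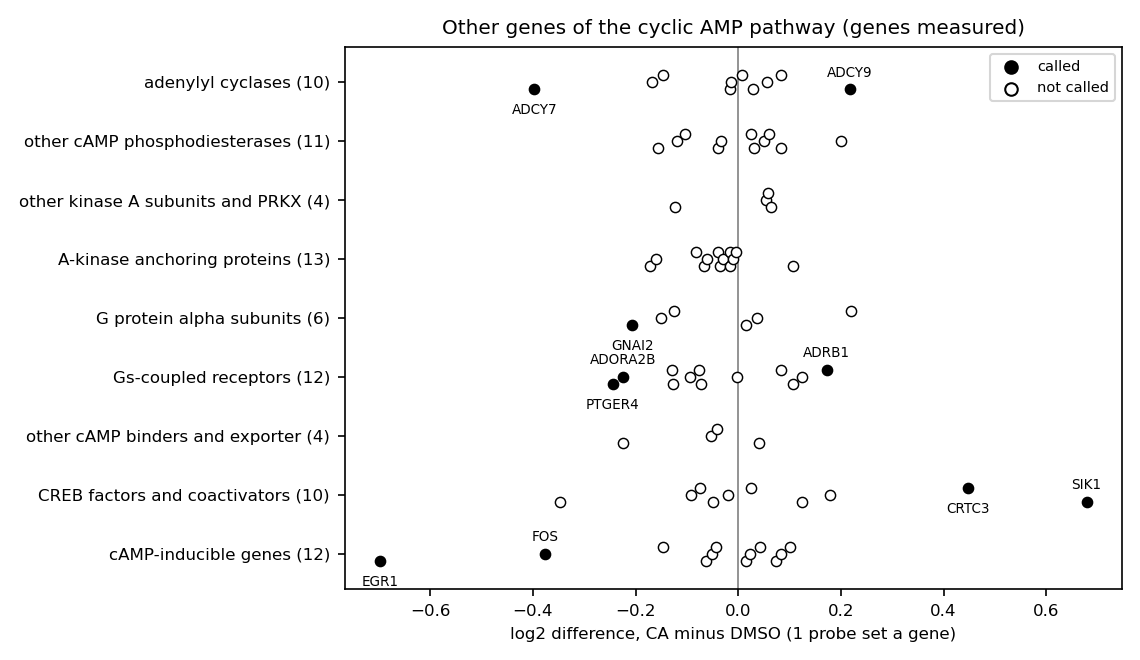
Log2 difference, CA minus DMSO, of the 82 other genes of the pathway, each by its probe set of highest mean, in rows by list with the number measured. Filled points with names were called at an adjusted p under 0.05 over 19775 genes. They run from EGR1 at -0.70 to SIK1 at 0.68.

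The genes whose 6 values were most like those of PKIB were CD36, a scavenger receptor, RGS18, a regulator of G-protein signalling, and FYB1, an adaptor protein. For each of them the DMSO mean, the higher of the groups, was at least 6, as the search required. Likeness was the root mean square difference over the 6 arrays after the DMSO mean of each probe set was subtracted, which was 0.19, 0.22 and 0.28 log2 units. The log2 differences of these probe sets were -1.49, -1.80 and -1.28, beside -1.64 for PKIB.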

How the data were processed

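RNA of 6 MOLM-14 samples was measured on 1 array each. The authors deposited log2 intensities, 1 per probe set and array, and the submitters' processing notes name RMA and the affy package as the tools. RMA compresses large differences. Software versions were not given in the sources used here. Of 54675 probe sets, 62 controls were set aside, which left 54613. Names came from the platform annotation, with symbols updated by Entrez number: 41091 probe sets had 1 symbol, 1801 several and 11721 were unnamed here.

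The contrast was CA minus DMSO, fitted with limma 3.58.1 (lmFit, eBayes; R 4.3.3), 2-sided, without covariates or a filter on level. Members were tested per probe set. Other pathway genes were tested by the probe set of highest mean over 19775 genes. P-values were adjusted by Benjamini-Hochberg, and a call is an adjusted p under 0.05. The fit was tested on simulated data. On arrays, their number limits the precision.

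The members, lists and tests were chosen with earlier results of these data known. Named were all members, up to 4 called genes a list, and the 3 genes most like PKIB among probe sets whose higher group mean was at least 6. Genes named uncalled were chosen after their values were seen. Promoter windows and their sequences are from RefSeq (GRCh38.p14). Alternatives covered arrays left out, a replicate block, scaling, moderation, array weights, filters, the choice of probe set and thresholds. Centring on 11 measured reference genes was chosen after seeing the data.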

Additional observations from a re-analysis of the deposited data

How the results depend on the processing

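On all 6 arrays, 6 member probe sets were called lower and 1 higher, and 6 other pathway genes lower and 4 higher. With any 1 array left out, these counts were 3 to 4 member probe sets lower, 1 higher, 3 to 4 pathway genes lower and 2 to 3 higher, in fits on fewer samples. Under the replicate block, 4 member probe sets were lower (PRKACB 202741_at and PRKAR1A 200605_s_at were not called) and 1 higher, and 3 pathway genes were lower and 2 higher. Same-numbered arrays did not deviate together (r of -0.00506, 0.0315 and -0.0255 across probe sets). With 3 arrays a group, this cannot decide whether the numbers pair samples. No array correlated best with the array of its own number in the other group. At an adjusted p under 0.01, 3 member probe sets were lower, and 3 pathway genes lower and 2 higher. At an adjusted p under 0.1, 11 pathway genes were lower. By Holm, 1 member probe set (PKIB) was lower and 0 higher, and 0 pathway genes were lower and 1 higher, where an unadjusted p under 0.05 by limma gave 10, 2, 13 and 7. Without the _x_at and _s_at probe sets, whose probes can match several transcripts, 3 member probe sets were lower. The filter on a mean log2 of at least 6 removed both PKIB probe sets (means 5.73 and 3.85) and PDE4B 203708_at (5.46), so it could not examine them. Under it, 0 member probe sets were higher and 11 pathway genes lower. At a mean of at least 5, or with an intensity trend and robust moderation, 10 pathway genes were lower, and 3 by the probe set of largest variance. ADCY7 (0.0125) and SIK1 (-0.16) turned sign without those probe sets, and ADCY9 (-0.10) on its probe set of largest variance, since each rested on another probe set. The calls of both PKIB probe sets, of PRKAR2B and of PDE4B 203708_at held with any 1 array left out, under the block, with either centring, after a second quantile normalization and with array weights. Probe sets under the lower quartile of their arrays limit what can be said of PKIA and of most PDE4D probe sets.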

Other observations

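CREM, which encodes both activators and a cAMP-inducible repressor of CREB sites, read 6.94, 7.31 and 7.27 in CA, against 7.47, 7.67 and 7.42 in DMSO. The groups did not overlap, and all 6 of its probe sets were lower in CA, but the difference of -0.35 (95% confidence interval -0.62 to -0.07) was not called by limma (adjusted p = 0.112). GNAS, which encodes the Gs alpha subunit that activates adenylyl cyclases, was at -0.15 by limma (95% confidence interval -0.25 to -0.05, adjusted p = 0.0723). That probe set had lower values on every CA array, but 2 of the 12 GNAS probe sets pointed the other way. CREBBP, a coactivator that binds phosphorylated CREB, was at 0.12 by limma (95% confidence interval 0.02 to 0.23, adjusted p = 0.128). Of its 4 probe sets, 1 pointed the other way. These 3 genes were chosen after their values were seen.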
